A study of Mus musculus with 6 samples.

Results

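The core and general pluripotency genes described here are 10 listed genes (Pou5f1, Sox2, Nanog, Sall4, Lin28a, Utf1, Dppa2, Dppa4, Dppa5a and L1td1), out of 24054 genes in the tables. Their rows were taken by gene symbol, but the list was made with earlier results of these data known. All 10 were among the 14539 genes that passed the filter on low counts. RNA-seq was performed on 3 populations sorted by flow cytometry, with 2 independent replicates each and 6 samples in all. All 3 populations come from 1 double knock-in mouse embryonic stem cell line, in which Foxa2 carries a Venus fusion (heterozygous) and Sox17 a Cherry fusion (homozygous). The d0 population holds undifferentiated cells negative for Venus and Cherry, taken on day 0. The d3F population holds Venus-positive, Cherry-negative cells after 3 days in endoderm differentiation medium with Wnt3a and Activin A, and d5FS holds cells positive for both reporters after 5 days in it. In the methods, undifferentiated cells were kept in a medium with fetal calf serum and LIF, and neither is listed for the endoderm medium. The populations were therefore set apart by day, medium and reporter together, and these cannot be told apart. Results from 1 line may not extend to others.

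Pluripotency is the ability of a cell to form every tissue of the embryo. In mouse ESCs it rests on transcription factors that bind many of the same enhancers and maintain each other's expression, with Oct4 (the product of Pou5f1), Sox2 and Nanog at the core. Around this core stand proteins that shape chromatin, such as Utf1, Dppa2 and Dppa4, and RNA-binding proteins, such as Lin28a, which blocks the maturation of let-7 microRNAs. During endoderm formation this network is shut down while mesendoderm and then endoderm genes are switched on.

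The labels were first compared with marker levels, given as CPM, read counts scaled to a common library size with TMM normalization. Foxa2 was 0.0439 and 0.308 CPM in d0 replicates 1 and 2, 71.1 and 47.9 CPM in d3F, and 36.7 and 59.4 CPM in d5FS. Sox17 was 0.746 and 0.513 CPM in d0, 4.75 and 14.5 CPM in d3F, and 54.3 and 103 CPM in d5FS, in the order of the sorting gates. Expected counts summed to between 16457729 and 22768686 per sample, and even the lowest member, Dppa2, had 21 counts or more in every sample. One library stood apart from its partner. In d0 replicate 2 the summed level of 9 genes of the 2-cell embryo programme (Zscan4a to Zscan4f, Zfp352, Tcstv1 and Tcstv3) was 128 CPM against 6.76 CPM in replicate 1, and the summed level of 5 embryonic stem cell markers (Esrrb, Klf4, Zfp42, Tfcp2l1 and Nr0b1) was 1056 CPM against 241 CPM. The summed neuroectoderm markers went the other way, at 23.8 CPM against 206 CPM, almost all of it Nes. Several results that rest on d0 replicate 2 are given below without it too.

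The promoters of the core factors are shown first, since binding sites for Oct4 and Sox2 side by side are a known feature of genes that this network controls. RefSeq promoter windows (build GRCm38.p6, 250 bases before a transcript start) were found for 6 of the 10 members, in 8 windows. Sall4, Dppa2, Dppa4 and Dppa5a had none. Both strands were searched for ATGCAAA (the octamer core read by Oct4), for CATTGT and CTTTGT (forms read by Sox proteins), and for GGGCGG (the GC box read by Sp1). In the lines below capitals mark these letters, which appear as their reverse complement where the match lies on the other strand. The Nanog window is chr6:122707239-122707488, the Sox2 window is chr3:34649745-34649994 and the Pou5f1 stretch is chr17:35505782-35506017, all on the plus strand and read 5′ to 3′.
Nanog: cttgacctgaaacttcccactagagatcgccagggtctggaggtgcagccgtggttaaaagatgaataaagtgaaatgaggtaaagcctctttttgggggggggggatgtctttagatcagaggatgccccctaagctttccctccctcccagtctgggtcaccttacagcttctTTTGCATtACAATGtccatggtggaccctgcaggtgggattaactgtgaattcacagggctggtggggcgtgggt
Sox2: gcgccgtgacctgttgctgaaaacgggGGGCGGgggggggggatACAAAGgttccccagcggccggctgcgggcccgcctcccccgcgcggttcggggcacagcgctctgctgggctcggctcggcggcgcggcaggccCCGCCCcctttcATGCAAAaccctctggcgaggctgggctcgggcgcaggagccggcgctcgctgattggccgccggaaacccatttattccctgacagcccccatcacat
Pou5f1: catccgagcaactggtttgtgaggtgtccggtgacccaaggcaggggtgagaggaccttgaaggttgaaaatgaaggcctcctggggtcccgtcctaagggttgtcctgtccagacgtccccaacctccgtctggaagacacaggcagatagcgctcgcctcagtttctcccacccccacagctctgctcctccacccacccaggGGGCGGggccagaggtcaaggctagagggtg

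In the Nanog window the Sox form and the octamer core lay side by side, with 1 base between them, and began 75 bases before the start. Of 32851 windows of the mouse genome, 3 held this composite (0.00913%), and both overlapping Nanog windows, which share the site, are among those 3. The Sox2 window held the octamer core on its own, 99 bases before the start, and a Sox form and 2 GC boxes elsewhere. The Pou5f1 window shown here held 1 GC box and none of the other motifs, while its second window (chr17:35508557-35508806), which lies within the gene, held a Sox form 158 bases before the start of another transcript. Of the other windows not printed, that of Utf1 held 4 GC boxes, that of Lin28a 1 Sox form, and that of L1td1 no match. The shares of all 32851 windows with a match were 4.12% for the octamer core, 10.7% and 16.5% for the Sox forms and 32.7% for the GC box. A match is a description of letters, and binding was not measured here.

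To ask when each gene fell, its level was compared over the step from d0 to d3F, over the step from d3F to d5FS, and over the whole course. The genes fell into 4 patterns. Dppa2, Dppa4, Dppa5a and Sox2 were already low in d3F. Pou5f1 and L1td1 passed the test for a fall in the second step and not in the first, while Nanog and Utf1 passed it in neither step but over the whole course. Sall4 and Lin28a passed no test. A gene was called changed at an adjusted p under 0.05 in the quasi-likelihood test of edgeR with an absolute log2 fold change above 1. These patterns depend on the test, since the DESeq2 Wald test also called Nanog in the second step and Utf1 in both. Sequencing of bulk RNA cannot tell fewer cells that express a gene from less of its RNA per cell.

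From d0 to d3F, 4 of the 10 members were called lower and none higher, against 1.9% of all tested genes called lower. From d3F to d5FS, 2 of 10 were called lower and none higher, against 0.461% of all tested genes. Over the whole course from d0 to d5FS, 8 of 10 were called lower and none higher, against 10.4% of all tested genes. An unadjusted p under 0.05 was reached by 6, 4 and 8 members in these comparisons. The median log2 fold changes of the 10 members were -1.56, -0.54 and -4.07, and those of all tested genes were -0.0059, 0.011 and 0.017. A test across the 3 populations at once called 8 of 10 members, against 16.9% of all tested genes. In those same 8 members both d5FS samples lay below both d0 samples, which held for 30.5% of all tested genes.

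**Figure D1:**
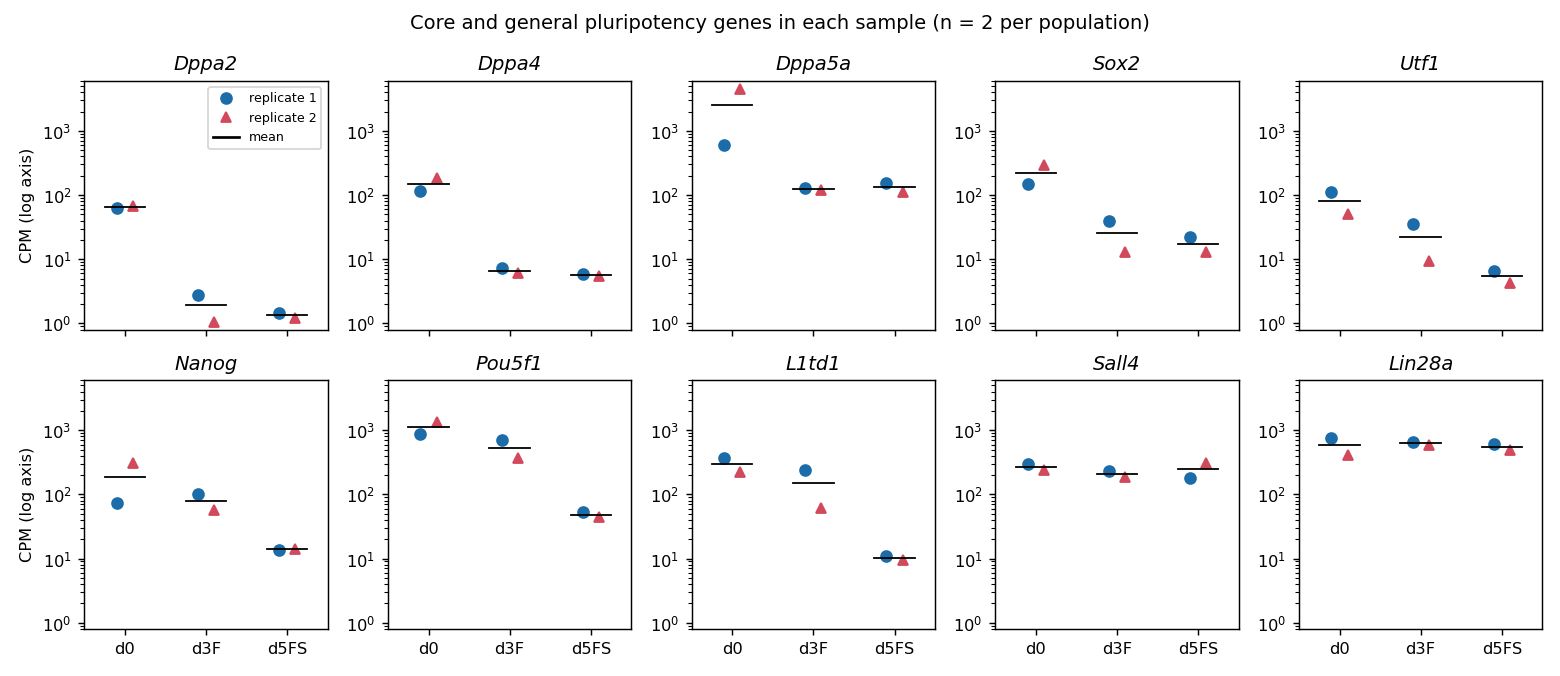
CPM of the 10 genes in each sample (log axis, the same in every panel), with circles for replicate 1, triangles for replicate 2 and lines for the mean of the 2 samples. Dppa2, Dppa4, Dppa5a and Sox2 are near their lowest level in d3F, Pou5f1 and L1td1 fall mainly afterwards, and Sall4 and Lin28a stay within one range.

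Pou5f1 (chr17:35506018-35510772, plus strand, mm10) encodes Oct4, the factor without which the pluripotent state is lost. Its level was 864 and 1367 CPM in d0, 694 and 367 CPM in d3F, and 52.9 and 43.7 CPM in d5FS. By CPM, both d3F samples were below both d0 samples, and both d5FS samples were far below d3F. The first step was -1.07 on the log2 scale (SE 0.40, adjusted p = 0.175), which did not pass the test. In the second step it fell by 3.46 on that scale (SE 0.44, adjusted p = 0.0174). That call was lost without d3F replicate 1, d5FS replicate 1 or d5FS replicate 2 (adjusted p 0.104 to 0.114), with log2 fold changes between -3.62 and -2.94. GENCODE places an antisense gene, Gm19553, across Pou5f1, and since the library kit does not mark strand, reads from both could not be separated. The same holds for Sall4 with Gm14261 and for Lin28a with Gm13061.

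Sox2 (chr3:34650405-34652461, plus strand) encodes the partner with which Oct4 binds DNA. It was 150 and 294 CPM in d0, 38.8 and 12.9 CPM in d3F, and 22.1 and 12.9 CPM in d5FS. The d0 samples were above all others, while the ranges of d3F and d5FS overlapped. In the first step Sox2 fell by 3.10 on the log2 scale (SE 0.59, adjusted p = 0.0270), and from d3F to d5FS the value was -0.56 (SE 0.55, adjusted p = 0.639). The first call was lost without d0 replicate 2 (adjusted p = 0.0757) or d3F replicate 2 (adjusted p = 0.140). Sox2 has a single exon and lies within the long noncoding gene Sox2ot, on the same strand. Sox2ot was at 0.658 and 0.564 CPM in d0, 0.244 and 0.0505 CPM in d3F, and 0.113 and 0.0573 CPM in d5FS, and was not called in any comparison.

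Nanog (chr6:122707489-122714633, plus strand) encodes a homeodomain factor that stabilizes self-renewal and varies between cells of an ESC culture. It was 73.9 and 305 CPM in d0, 99.96 and 56.4 CPM in d3F, and 13.8 and 13.9 CPM in d5FS. The d0 and d3F ranges overlapped, because d0 replicate 1 lay between the d3F samples. In the fit of all 6 samples edgeR called neither step, with log2 fold changes of -1.27 (SE 0.59, adjusted p = 0.270) and -2.49 (SE 0.62, adjusted p = 0.0896). The ranges of d3F and d5FS did not overlap. The DESeq2 Wald test called the second step (adjusted p = 0.000334) and not the first (adjusted p = 0.118). With only the d3F and d5FS samples fitted, edgeR called the second step too (adjusted p = 0.0129). Over the whole course it fell by 3.77 on the log2 scale (SE 0.65, adjusted p = 0.00715). Without d0 replicate 2 that value was -2.40 (adjusted p = 0.0109), and 18.8% of the d0 level was left in place of 7.34%. Without d0 replicate 2 the value from d0 to d3F was 0.096 (adjusted p = 0.946), and without d0 replicate 1 it was -1.96 (adjusted p = 0.0266). Without d5FS replicate 1 the adjusted p from d0 to d5FS was 0.0581.

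Sall4 (chr2:168748332-168767943, minus strand) encodes a zinc finger factor of ESCs that is also expressed in later embryonic tissues. It was 297 and 242 CPM in d0, 234 and 188 CPM in d3F, and 178 and 314 CPM in d5FS. The d5FS samples enclosed all others. Between d0 and d5FS the log2 fold change was -0.13 (95% interval -0.93 to 0.67, adjusted p = 0.815).

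Utf1 (chr7:139943789-139945112, plus strand) encodes a chromatin-bound protein of undifferentiated cells. It was 110 and 51.2 CPM in d0, 35.3 and 9.35 CPM in d3F, and 6.64 and 4.30 CPM in d5FS. By CPM, no ranges overlapped, and the level was lower at each step. By TPM, as given below, the ranges of d0 and d3F overlapped. The log2 fold changes of the steps were -1.86 (SE 0.63, adjusted p = 0.136) and -2.03 (SE 0.65, adjusted p = 0.153), and edgeR called neither. The DESeq2 Wald test called both (adjusted p = 0.0130 and 0.0103). Over the whole course it fell by 3.88 (SE 0.69, adjusted p = 0.00794). That call was lost without d5FS replicate 2 (adjusted p = 0.0562).

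Dppa2 and Dppa4 encode partner proteins that bind CpG-rich promoters. The genes are neighbours on the plus strand of chromosome 16 (Dppa4 at chr16:48283733-48294237 and Dppa2 at chr16:48303908-48319723), with 9670 bases between them. Dppa2 was 62.5 and 68.8 CPM in d0, 2.76 and 1.06 CPM in d3F, and 1.47 and 1.20 CPM in d5FS. Dppa4 was 116 and 184 CPM in d0, 7.19 and 6.06 CPM in d3F, and 5.84 and 5.45 CPM in d5FS. In both genes all samples after d0 were low.

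In the first step, Dppa2 fell by 5.08 on the log2 scale (SE 0.50, adjusted p = 0.00463) and Dppa4 by 4.50 (SE 0.37, adjusted p = 0.00240). These were the calls of that step that held in each fit that left out 1 sample. From d3F to d5FS the values were -0.52 (adjusted p = 0.610) and -0.23 (adjusted p = 0.757). The profiles of both genes over the 6 samples lay close together, with a root mean square distance of 0.51 between log2 CPM values centred on each gene's mean, the smallest of any pair of members that fell. Per length, Dppa2 was at 0.410 and 0.282 of the TPM of Dppa4 in d0, at 0.293 and 0.134 in d3F, and at 0.190 and 0.163 in d5FS. The d3F range enclosed that of d5FS and overlapped that of d0. TPM is the share of transcripts after division by length.

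Dppa5a (chr9:78367052-78368177, minus strand) encodes a small KH-domain protein abundant in ESCs. It was 595 and 4448 CPM in d0, 130 and 120 CPM in d3F, and 152 and 113 CPM in d5FS. All samples after d0 were low and close together, but the d0 samples differed by 2.90 on the log2 scale, a larger gap than in 99.3% of all tested genes. Dppa5a fell by 4.33 on that scale in the first step (SE 0.84, adjusted p = 0.0280), and from d3F to d5FS the value was 0.08 (SE 0.73, adjusted p = 0.969). Without d0 replicate 2 the fall was 2.24, and the call was lost without either d3F or either d5FS sample (adjusted p 0.0541 to 0.174). From d0 to d5FS it fell by 4.25 (adjusted p = 0.0109), a call lost without d5FS replicate 1 or 2. Without d0 replicate 2 that change was -2.16 (adjusted p = 0.0107), and 22.2% of the d0 level was left in d5FS in place of 5.24%. The expected counts of Dppa5a were not whole in 3 samples, and those of Pou5f1 in 1 sample, as happens where RSEM divides reads among near-identical copies, so their levels are uncertain to that extent.

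L1td1 (chr4:98726734-98738480, plus strand) encodes an RNA-binding protein derived from a LINE-1 element, found in complexes with Lin28 protein. It was 371 and 227 CPM in d0, 244 and 61.4 CPM in d3F, and 11.1 and 9.40 CPM in d5FS. The ranges of d0 and d3F overlapped, and d5FS lay below both. The first step was -0.97 on the log2 scale (SE 0.57, adjusted p = 0.400), and in the second it fell by 3.90 (SE 0.64, adjusted p = 0.0309). The second call was lost without d3F replicate 1 (log2 fold change -2.60, adjusted p = 0.110) and without either d5FS sample.

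Lin28a (chr4:134003330-134018841, minus strand) was 768 and 410 CPM in d0, 651 and 599 CPM in d3F, and 616 and 488 CPM in d5FS. The d0 samples enclosed all others. Between d0 and d5FS the log2 fold change was -0.09 (95% interval -0.93 to 0.75, adjusted p = 0.874). Among 13 other genes of the Lin28 and let-7 pathway, edgeR called none in either single step, where 3 and 3 had an unadjusted p under 0.05 and the DESeq2 Wald test called 2 and 1. From d0 to d5FS, 1 was called lower and 3 higher, but 2 lower and 1 higher without d0 replicate 2, and 1 higher and none lower without either d5FS sample. Igf2bp1 fell by 1.38 on the log2 scale (adjusted p = 0.0164), while Hmga2 rose by 1.65 (adjusted p = 0.0350) and Igf2bp2 by 2.16 (adjusted p = 0.00531). Lin28b, the paralogue of Lin28a, was 69.5 and 24.0 CPM in d0, 78.1 and 47.6 CPM in d3F, and 22.1 and 16.05 CPM in d5FS, and its log2 fold change of -1.29 was not called (adjusted p = 0.0983).

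The order of fall was read from the share of the d0 mean CPM that was left, with its range over the 4 pairs of 1 d0 and 1 later sample. In d3F, Dppa2 had 2.91% left (1.54 to 4.41%), Dppa4 4.43% (3.30 to 6.21%), Dppa5a 4.96% (2.70 to 21.9%) and Sox2 11.6% (4.40 to 25.9%). Then came Utf1 with 27.6% (8.46 to 68.9%), Nanog with 41.3% (18.5 to 135%), Pou5f1 with 47.6% (26.9 to 80.4%) and L1td1 with 51.0% (16.6 to 107%). Sall4 had 78.3% and Lin28a 106%. The ranges of all neighbours in this order overlapped, but those of Dppa2 and Dppa4 lay below those of Utf1, Nanog, Pou5f1 and L1td1.

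In d5FS the order differed. Dppa2 had 2.04% left (1.75 to 2.36%), L1td1 3.42% (2.53 to 4.87%), Dppa4 3.77%, Pou5f1 4.33% (3.20 to 6.13%), Dppa5a 5.24%, Utf1 6.76%, Nanog 7.34% and Sox2 7.89%, while Sall4 had 91.4% and Lin28a 93.8%. Only Dppa2 and its neighbour L1td1, and Sox2 and its neighbour Sall4, did not overlap. In d3F, L1td1 and Pou5f1 had the 2 highest shares of the 8 falling genes, and in d5FS they were among the 4 lowest. These places depend on the d0 samples and the scale. Without d0 replicate 2, Nanog had 106% left in d3F, above L1td1 with 41.1%, and without d0 replicate 1 Utf1 with 43.6% was above Pou5f1 with 38.8%, while 4 members then had less left in d5FS than L1td1. By TPM, Nanog had 63.3% left in d3F, Pou5f1 62.3% and L1td1 60.3%. In d5FS, Sall4 had 65.4% and Lin28a 68.0% left by TPM, less than by CPM.

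**Figure D2:**
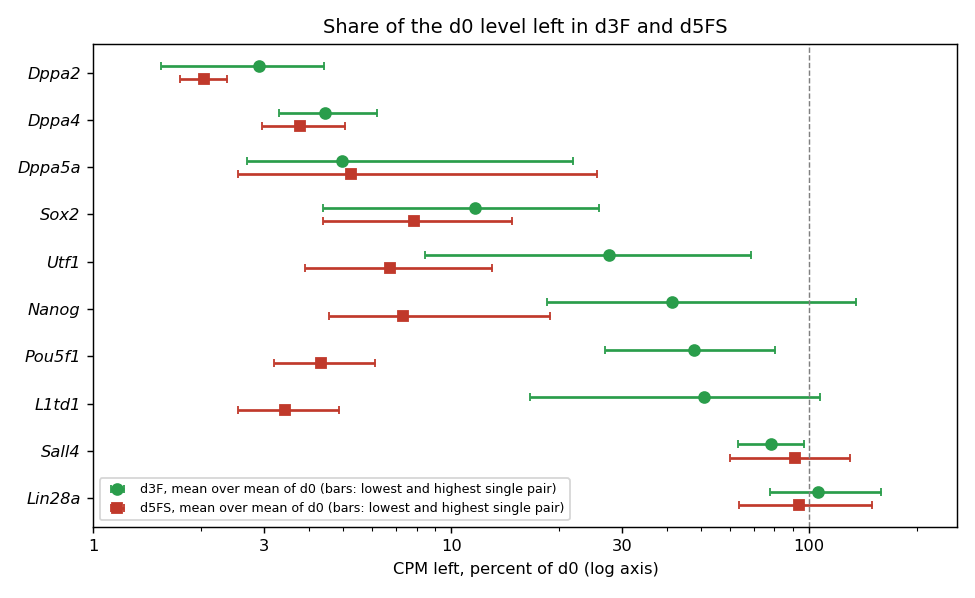
CPM left in d3F (circles) and d5FS (squares) as a percent of d0 (log axis), with bars from the lowest to the highest single pair of samples and a dashed line at 100%. Genes are ordered by the share left in d3F, from 2.91% for Dppa2 to 106% for Lin28a, and the gap between circle and square widens from Utf1 to L1td1.

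By d3F, the fitted log2 change reached 90.6% of its d5FS value in Dppa2, 95.1% in Dppa4, 102% in Dppa5a and 84.6% in Sox2. It reached 47.8% in Utf1, 33.8% in Nanog, 23.6% in Pou5f1 and 20.0% in L1td1. Whether the steps of a gene differed was tested directly, as the second log2 change minus the first. Dppa4 alone was called by edgeR, with a difference of 4.26 (SE 0.62, adjusted p = 0.0427), against 0.413% of all tested genes. That call was lost without either d3F or either d5FS sample (adjusted p 0.129 to 0.284). The difference was 4.56 in Dppa2 (adjusted p = 0.0775), 4.41 in Dppa5a (adjusted p = 0.249) and 2.54 in Sox2 (adjusted p = 0.379). It was -2.39 in Pou5f1 (adjusted p = 0.190) and -2.93 in L1td1 (adjusted p = 0.254). The DESeq2 Wald test called the difference in Dppa4 and also in Pou5f1 (adjusted p = 0.0345) and L1td1 (adjusted p = 0.0455). It called Dppa2 (adjusted p = 1.8e-05) and Dppa5a (adjusted p = 0.0021) as well, but not Sox2. An early fall of Sox2 and a late fall of Pou5f1 are therefore descriptions of their calls. The difference of steps did not pass the edgeR test in either gene, and for Pou5f1 the 2 tests disagreed.

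**Figure D3:**
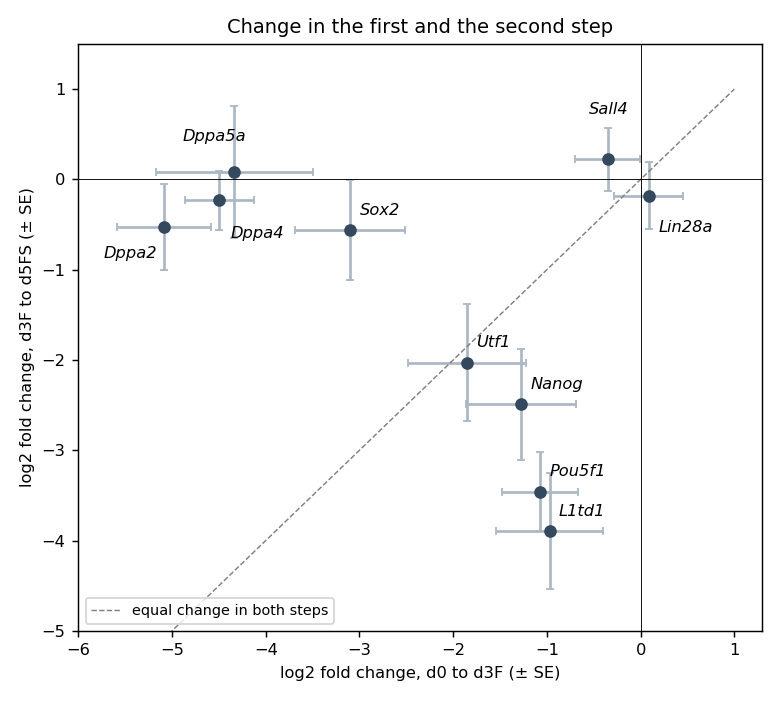
Log2 fold change from d0 to d3F (x axis) against that from d3F to d5FS (y axis) for each gene, with bars of 1 SE from the quasi-likelihood fit and a dashed line where both are equal. Dppa2, Dppa4, Dppa5a and Sox2 lie at the left near 0 on the y axis, Pou5f1 and L1td1 lie low with first steps near -1, and Sall4 and Lin28a lie at the origin.

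Levels of different genes were compared per length, as TPM. In d0 the mean TPM was 1999 ± 1544 for Dppa5a (SD, n = 2 here and below), 429 ± 91.3 for Pou5f1, 95.8 ± 81.0 for Lin28a, 57.0 ± 44.6 for L1td1 and 50.3 ± 10.1 for Dppa4. It was 46.1 ± 42.1 for Utf1, 41.8 ± 2.33 for Sox2, 35.3 ± 15.9 for Nanog, 27.9 ± 17.5 for Sall4 and 17.9 ± 8.07 for Dppa2. Only the ranges of the first pairs of neighbours were apart, Dppa5a from Pou5f1 and Pou5f1 from Lin28a, and the ranges of the others overlapped. Within each d0 sample, Lin28a was also above its neighbour L1td1, and Sall4 above its neighbour Dppa2. In d5FS, Dppa5a had 117 ± 59.1, Lin28a 65.2 ± 29.8, Sall4 18.2 ± 1.60 and Pou5f1 16.1 ± 6.99 TPM, and the other 6 members had means of at most 3.10 TPM.

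Ratios within a sample are free of the scaling between samples. The TPM of Sox2 was 0.0881 and 0.110 of that of Pou5f1 in the d0 samples, 0.0285 and 0.0180 in the d3F samples, and 0.214 and 0.151 in the d5FS samples. The d3F ratios were the lowest and the d5FS ratios the highest, with no overlap between populations. Nanog was at 0.0489 and 0.128 of Pou5f1 in the d0 samples, 0.0823 and 0.0882 in the d3F samples, and 0.150 and 0.183 in the d5FS samples, so that only d5FS stood apart. Lin28a was at 0.310 and 0.106 of Pou5f1 in d0 and at 4.10 and 3.94 in d5FS. Sall4 was at 0.0816 and 0.0426 of Pou5f1 in d0 and at 0.812 and 1.73 in d5FS. L1td1, by contrast, went from 0.579 and 0.662 of the TPM of Lin28a in the d0 samples to 0.448 and 0.123 in the d3F samples and to 0.0215 and 0.0229 in the d5FS samples. The ratios are descriptions, and their differences were not tested.

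**Figure D4:**
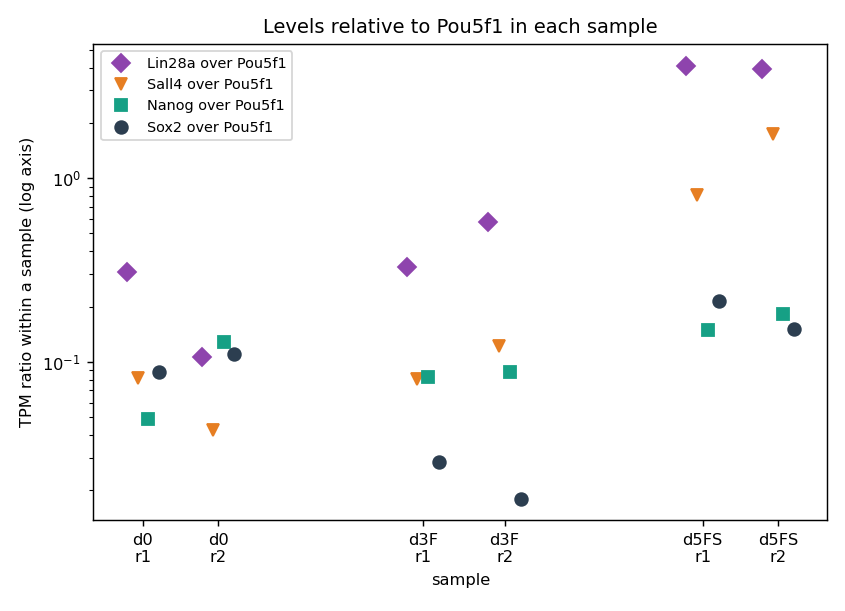
TPM of Lin28a, Sall4, Nanog and Sox2 divided by the TPM of Pou5f1 of the same sample (log axis), with a point for each sample and gene, shifted sideways where they would coincide. The Sox2 ratio is lowest in d3F, at 0.0285 and 0.0180, and the Lin28a ratio is highest in d5FS, at 4.10 and 3.94.

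Replicates of a population varied together in some members. In d3F all 10 members were lower in replicate 2 than in replicate 1, by a median of 0.87 on the log2 scale, whereas 50.4% of all tested genes were lower in replicate 2. The gaps of L1td1 (-1.99), Utf1 (-1.91) and Sox2 (-1.58) exceeded those of 98.8%, 98.6% and 96.8% of tested genes. Markers were mixed between the d3F samples. Of the mesendoderm markers, T (69.1 against 169 CPM) and Mixl1 were lower in replicate 2 than in replicate 1. Eomes (151 against 99.2 CPM), Gsc and Lhx1 were higher in it. Of the endoderm markers, Foxa2 was lower in replicate 2 (47.9 against 71.1 CPM), while the others were higher, such as Sox17 (14.5 against 4.75 CPM). In d0, replicate 2 was higher in 6 members and lower in 4. Dppa5a and Nanog, with gaps of 2.90 and 2.04, were higher in the library that also had more of the 2-cell and embryonic stem cell markers, while Utf1 (-1.11), Lin28a (-0.90) and L1td1 (-0.71) were lower in it. The part of these library differences in the results was not tested.

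The scale matters for such replicate gaps. In d0 the TPM of Pou5f1 was 493 in replicate 1 and 364 in replicate 2, the opposite order to its CPM. In d3F replicate 1 it was 406, so that by TPM the d0 and d3F ranges of Pou5f1 overlapped. Those of Utf1 overlapped too, at 75.9 and 16.4 TPM in d0 and 24.8 and 3.91 TPM in d3F. The TPM of Sox2 in d0 was 43.4 and 40.1 where its CPM was 150 and 294. In each population the study lists an mRNA library and a total RNA library, without saying which replicate is which. The methods of the paper describe removal of ribosomal RNA without such a distinction. More genes had a count in replicate 2 than in replicate 1 in d0 (18642 against 16970), d3F (18343 against 16835) and d5FS (19846 against 16770). Library type could not be told apart from the replicate.

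The members were set against 32 other genes of the pluripotency network. From d0 to d3F, 15 of 32 were called lower and none higher, from d3F to d5FS 2 lower and none higher, and from d0 to d5FS 22 lower and none higher. Their median log2 fold changes were -2.13, 0.07 and -2.25. The count of 15 dropped to 6 without d0 replicate 2, to 7 without d3F replicate 1 and to 2 without d3F replicate 2, and it was 8 without either d5FS sample. The count of 2 was 0 without d3F replicate 1 or either d5FS sample. The count of 22 was 17 without d0 replicate 2, with 2 genes then called higher, 10 without d5FS replicate 1 and 12 without d5FS replicate 2. The DESeq2 Wald test called 24 lower and 1 higher. Dnmt3l, a cofactor of DNA methylation, was 274 and 428 CPM in d0, 9.58 and 10.3 CPM in d3F, and 9.53 and 11.5 CPM in d5FS. It too was low in all samples after d0. Gdf3, a TGF-beta family ligand, fell in both steps, with log2 fold changes of -2.18 (adjusted p = 0.0299) and -2.77 (adjusted p = 0.0307).

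Zfp42, Klf4 and Esrrb, factors of the naive ground state, fell from d0 to d3F, with log2 fold changes of -4.54, -3.09 and -3.66 (adjusted p = 0.0137, 0.0378 and 0.0337). Of the 5 embryonic stem cell markers, 4 were called lower in that step, but 1 without d0 replicate 2, 1 without d3F replicate 1 and 0 without d3F replicate 2. Lefty1 and Lefty2, Nodal antagonists that ESCs and mesendoderm both express, had values of 2.05 and 0.68 from d0 to d5FS that were not called. Of 4 genes known for joint Oct4 and Sox2 sites, Fgf4, Fbxo15 and Spp1 were called lower from d0 to d3F, with log2 fold changes of -3.48, -3.65 and -2.62, and none was called from d3F to d5FS, also at an unadjusted p under 0.05 or by the DESeq2 Wald test. Without d3F replicate 2 none of the first calls held, and without d0 replicate 2 there were 2. In the second step Fgf4, Fbxo15 and Spp1 had log2 fold changes of -0.06, 0.31 and -0.49. Sox2 had -0.56 there, Pou5f1 -3.46 and Nanog -2.49. A link of these genes to any of the factors was not tested. The other gene of this list, Lefty1, had a value of 1.91 in the first step, which edgeR did not call (adjusted p = 0.176) and the DESeq2 Wald test called higher.

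Genes of the formative and primed states, which follow the naive state, moved both ways. From d0 to d5FS, 4 of 10 were called lower and 3 higher, with 0 lower and 3 higher without either d5FS sample. In the first step Fgf5 rose by 4.14 on the log2 scale (adjusted p = 0.0373), and it was 12.5 and 1.18 CPM in d0, 146 and 97.1 CPM in d3F, and 199 and 161 CPM in d5FS. Otx2 rose by 2.92 in that step (adjusted p = 0.0491). It was 28.6 and 6.30 CPM in d0, 99.4 and 166 CPM in d3F, and highest in d5FS, at 250 and 434 CPM. In d0 both genes were far lower in replicate 2 than in replicate 1, so the size of these rises depends on that library. Neither of these first-step calls held without either d3F sample. Pou3f1 and Fgf15 fell over the whole course, with log2 fold changes of -4.21 and -3.66 (adjusted p = 0.0247 and 0.0169).

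Of 12 tested relatives of the members, 3 were called lower from d0 to d3F, none in the second step (2 at an unadjusted p under 0.05, and 1 called by the DESeq2 Wald test) and 5 from d0 to d5FS, and none was called higher. The count of 3 was 1 without either d3F sample, and the count of 5 was 2 without d5FS replicate 1 and 3 without d5FS replicate 2. Khdc3 and Ooep, which encode KH-domain proteins related to Dppa5a, fell in the first step, with log2 fold changes of -5.31 and -4.81 (adjusted p = 0.0140 and 0.0197). Ooep was 19.7 and 124 CPM in d0, higher in replicate 2 as in Dppa5a. Sall1 and Sox3 had log2 fold changes of 0.55 and 1.41 from d0 to d5FS and were not called.

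Genes of the 2-cell programme were called lower in 4 of 6 tested cases from d0 to d5FS and in no single step by edgeR, where 5 and 1 had an unadjusted p under 0.05. The DESeq2 Wald test called 6 of 9 in the first step and 0 in the second. Zscan4c was 1.27 and 39.6 CPM in d0 and at most 0.898 CPM in every other sample, and its log2 fold change to d5FS was -4.95 (adjusted p = 0.0313). From d0 to d5FS, 1 of 6 tested was called without d0 replicate 2, 8 of 9 tested without d0 replicate 1, and 0 of 9 tested without either d5FS sample (4 and 7 at an unadjusted p under 0.05).

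Markers of other cell types moved with the fall of the members. Among the endoderm markers, Foxa2 and Sox17 carry the sorted reporters. The gates therefore set the rise of Foxa2 in d3F, and of both in d5FS, in advance. Of the other endoderm markers, all but Hhex were called higher from d0 to d3F. All 5 mesendoderm markers were called higher from d0 to d3F, against 2.8% of all tested genes called higher, and 6 of 7 endoderm markers were too (3 without d0 replicate 2 or d3F replicate 2), with summed endoderm levels of 7.46 and 9.43 CPM in d0, 176 and 274 CPM in d3F, and 604 and 1111 CPM in d5FS. Of 6 fibroblast markers, chosen because the line was once grown on feeder cells, 4 were called higher from d0 to d5FS, against 12.4% of all tested genes, with summed levels of 10.5 and 14.8, 32.2 and 77.4, and 232 and 195 CPM. These were mainly collagen genes, such as Col1a2 at 110 and 156 CPM in d5FS, whereas Thy1 and Twist2 were at most 1.02 CPM there. Of 6 germ cell markers, 5 were called lower from d0 to d5FS, such as Ddx4, which fell by 4.51 on the log2 scale, but 2 without d0 replicate 2 or either d5FS sample. Trophectoderm markers gave 1 call lower and 2 higher over that course, and edgeR called no neuroectoderm marker among the 4 tested over that course (2 at an unadjusted p under 0.05, and 0 by the DESeq2 Wald test). The part of other cell types in the members' levels was not tested.

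Genes with a course like that of each core factor over the 6 samples were found by the smallest root mean square distance between centred log2 CPM values. For Pou5f1 they included Kis2 (0.24) and Rasgrp2 (0.39). For Sox2 they were Ankrd45 (0.24), Trap1a (0.28) and Slc25a41 (0.30), and for Nanog they included Fgf17 (0.30) and Kirrel2 (0.30). Kis2 was 16.6 and 30.2 CPM in d0, 9.66 and 7.63 CPM in d3F, and 0.851 and 0.573 CPM in d5FS. Kirrel2, like Nanog, was far higher in d0 replicate 2 than in replicate 1, at 13.3 against 2.24 CPM. Among the members, Pou5f1 lay closest to L1td1 (0.52) and then to Nanog (0.63), and Sox2 lay closest to Dppa4 (0.70), so that Pou5f1 and Sox2 were 1.28 apart. Several of these genes are low, and the likeness covers 6 samples only.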

How the data were processed

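RNA-seq tables of the d0, d3F and d5FS populations were analysed, each with 2 replicates. Samples were assigned to populations from the title, time point and sorting markers of their labels. The authors depleted ribosomal RNA, prepared libraries with a TruSeq kit, aligned paired-end reads to mm10 with STAR and estimated levels per RefSeq gene with RSEM. Versions are not given in the sources used here. The expected counts that the authors deposited are RSEM's estimates of fragments for each gene, without normalization. Deposited TPM values were scaled by RSEM for length and to the same total in each sample. They served to compare genes within samples and, where stated, as a second scale. Deposited FPKM values were not used.

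Expected counts were rounded. The filterByExpr function of edgeR 4.0.16 (R 4.3.3) kept 14539 of 24054 genes, which were normalized by TMM and fitted with one mean per population in all 6 samples (glmQLFit, glmQLFTest, prior count 0.125), which leaves 3 residual degrees of freedom. P-values were adjusted over all 14539 genes by the Benjamini-Hochberg method. SE was obtained by dividing the size of the log2 fold change by the root of its F statistic. The pipeline was tested on simulated data. Alternatives were DESeq2 1.42.0 (as in the study, or with plain cut-offs), its size factors, other filters, a replicate block, pairwise fits and each sample left out, and for gene lists these were chosen after seeing the data. Replicates differed far beyond sampling noise, with chi-square per degree of freedom of 195.8, 90.2 and 87.5 in d0, d3F and d5FS.

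The members and gene lists were chosen with earlier results of these data known. All members are named. Of each list, the 2 genes with the lowest and the 2 with the highest log2 fold change from d0 to d5FS were eligible to be named, plus Zfp42, Klf4, Esrrb, Otx2, Fgf5, Lin28b and Sox2ot. Tfcp2l1, Nr0b1, Spp1, T, Eomes and Sox17 are named as markers or as one of few. For Pou5f1, Sox2 and Nanog, the 3 tested genes with the nearest profiles were eligible, and some of them are not reported here. Positions are from GENCODE M21 (mm10), promoters from RefSeq. Figures were drawn with matplotlib 3.10.9.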

Additional observations from a re-analysis of the deposited data

How the results depend on the processing

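With n = 2 and 3 residual degrees of freedom, single steps were less secure than the whole course. From d0 to d5FS, 8 members were called under each alternative, and 6 to 8 with 1 sample left out. From d0 to d3F, 4 were called, 7 without a filter on low counts, and 2 to 5 with 1 sample left out. From d3F to d5FS, 2 were called, 4 with the DESeq2 Wald test, 4 without a filter, and 0 to 3 with 1 sample left out. The count of 0 in edgeR arose without d3F replicate 1, d5FS replicate 1 or d5FS replicate 2, where 3, 4 and 3 members had an unadjusted p under 0.05. A difference in any population was called in 8 and in 5 to 8 with 1 sample left out. A difference between the steps was called in 1 member, in 5 with the DESeq2 Wald test, in 6 without a filter, in 0 with at least 10 counts in every sample (6 at an unadjusted p under 0.05), and in 0 to 2 with 1 sample left out. The cause was not tested. Of the 3 members with the least left, 2 to 3 kept that place in d3F and in d5FS when 1 sample was left out. Over all genes, calls ranged from 97 to 1933 (683 reported) from d0 to d3F, 0 to 1423 (224) from d3F to d5FS, 1004 to 4495 (3313) from d0 to d5FS, 747 to 4534 (2453) for any difference and 0 to 908 (60) for the steps.

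Directions turned only in values that were not called in the fit of all 6 samples. With each sample left out in turn, the log2 fold change from d0 to d3F ranged from -1.96 to 0.096 in Nanog and from -0.28 to 0.61 in Lin28a. From d3F to d5FS the range was -1.15 to 0.42 in Sox2, -1.05 to 0.32 in Dppa2, -0.17 to 0.28 in Dppa5a and -0.25 to 0.56 in Sall4. From d0 to d5FS it was -0.59 to 0.22 in Sall4 and -0.47 to 0.42 in Lin28a. The step difference ranged from -0.80 to 0.10 in Lin28a and from -1.51 to 2.32 in Utf1. Nanog and Lin28a turned in the first step without d0 replicate 2, and Sox2 and Dppa2 in the second without d3F replicate 1. Of 500 values under alternatives, 437 kept direction and call.

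The populations share replicate numbers, but nothing in the labels makes a number a shared batch. Differences between replicates correlated between populations with r = 0.314, 0.324 and 0.278 across genes. With the replicate number as a block, 5, 3 and 8 members were called from d0 to d3F, d3F to d5FS and d0 to d5FS, and 2 for the steps. Utf1 was then called in both steps (adjusted p = 0.0178 and 0.0326) and Dppa2 for the difference between steps (4.68, adjusted p = 0.0439). The step difference of Utf1 was 0.20 under the block.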
